A study of Homo sapiens with 9 samples.

Results

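The genes described here are 3 receptors and 7 ligands of the epidermal growth factor (EGF) family, chosen by name from the 58735 genes of the table, where each name matched 1 row. The receptors are EGFR, ERBB2 and ERBB3, and the ligands are AREG, EREG, HBEGF, TGFA, BTC, EPGN and NRG1. RNA was sequenced in bulk from 9 cultures of FaDu, an established line of human squamous carcinoma of the hypopharynx, with 3 biological replicates in each of 3 groups and no treatment named in the labels. The KD_OE group carried the label of AMIGO2 knockdown together with CAPN2 overexpression, the KD_NC group that of AMIGO2 knockdown alone, and the NC_NC group that of normal control (wild type). AMIGO2 encodes a leucine-rich-repeat protein of the cell surface, and CAPN2 the large subunit of the protease calpain-2. The agent of the knockdown, the vector of the overexpression and any selection of clones were not stated in the sources used here. Replicates are cultures of 1 line, so p-values measure the spread between these cultures.

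EGF family ligands are made as membrane-anchored precursors, cut off the cell surface by metalloproteases, and bind receptor tyrosine kinases on the same cell or its neighbours. EGFR binds AREG, EREG, HBEGF, TGFA, BTC and EPGN. ERBB3 binds the neuregulins such as NRG1, has little kinase activity of its own and signals in dimers, while ERBB2 has no known ligand and serves as the preferred partner of the others. In squamous epithelium EGFR signalling drives proliferation and migration of basal cells, and EGFR is often highly expressed in squamous carcinomas of the head and neck.

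Totals ran from 15158607 to 19737562 counts per library, and 3 counts corresponded to between 0.149 and 0.203 CPM (CPM being counts scaled to library depth with TMM, the trimmed mean of M values), limits that cover counting error only. AMIGO2 stood at 42.8, 35.3 and 38.8 CPM in KD_OE, 24.5, 31.3 and 27.3 CPM in KD_NC and 29.5, 26.1 and 27.2 CPM in NC_NC, so neither group labelled as a knockdown lay below control, and KD_OE lay above it (log2 0.50, edgeR adjusted p = 0.00106). CAPN2 stood at 499 ± 1.29 CPM in KD_OE, 418 ± 20.3 CPM in KD_NC and 462 ± 13.9 CPM in NC_NC (SD, n = 3), 1.19-fold higher in KD_OE than in KD_NC (adjusted p = 0.012) and not called against NC_NC (adjusted p = 0.254). Groups are therefore called libraries labelled knockdown or control below. Squamous epithelial markers summed to between 5802 and 6401 CPM in KD_OE, 5426 and 6450 CPM in KD_NC and 10033 and 10476 CPM in NC_NC, with all 10 tested. KRT5 alone averaged 1616 ± 121 CPM in KD_OE, 1207 ± 180 CPM in KD_NC and 4437 ± 133 CPM in NC_NC, and 7 of the 10 fell in each comparison with NC_NC, while CDH1 rose (log2 0.69 in KD_OE and 0.26 in KD_NC, edgeR adjusted p = 6.47e-07 and 0.0181) and KRT17 was not called. Of 7 fibroblast markers, 6 endothelial markers and 7 immune markers, 1, 2 and 1 had enough counts to be tested, and LUM, PDGFRA, KDR and TPSAB1 had 0 counts in all 9 libraries. Endothelial markers summed to 16.2 to 16.8 CPM in KD_OE, 43.3 to 49.5 CPM in KD_NC and 17.7 to 22.6 CPM in NC_NC, most of it CDH5. Fibroblast markers summed to 13.5 to 15.6 CPM in KD_OE, 11 to 14 CPM in KD_NC and 8.19 to 9.73 CPM in NC_NC, and immune markers to 5.68 to 9.18 CPM in KD_OE, 18.9 to 25.3 CPM in KD_NC and 14.7 to 18.6 CPM in NC_NC. Mitochondrial ribosomal RNA took 1.04 ± 0.019% of counts in KD_OE, 0.954 ± 0.113% in KD_NC and 0.557 ± 0.0233% in NC_NC (SD, n = 3). RNA quality is 1 of several things that can affect this share, and it was not measured here. The part of these differences in the results was not tested. In bulk RNA, fewer cells that express a gene and less RNA per cell cannot be told apart. The 3 KD_NC libraries differed more among themselves (mean chi-square per gene 21.6 to 22.9 between pairs) than those of KD_OE (3.03 to 7.61) or NC_NC (2.88 to 5.24).

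EGFR was the receptor with the highest level in all 3 groups, and its level differed between them. EGFR (ENSG00000146648, GRCh38 chromosome 7, 55019021 to 55211628, plus strand) stood at 1062, 1093 and 1071 CPM in KD_OE, 635, 702 and 482 CPM in KD_NC and 867, 894 and 887 CPM in NC_NC. The 3 groups did not overlap, with KD_NC lowest and KD_OE highest. EGFR fell 1.46-fold in KD_NC against NC_NC (log2 -0.54 ± 0.107 SE, edgeR adjusted p = 0.000664). It stood 1.77-fold higher in KD_OE than in KD_NC (log2 0.83 ± 0.107, edgeR adjusted p = 3.83e-06) and 1.22-fold higher than in NC_NC (log2 0.28 ± 0.107, edgeR adjusted p = 0.0292). KD_NC replicate 3 was the lowest of all 9, and without it the log2 fold change of KD_NC against NC_NC was -0.40 (adjusted p = 0.000413). The 1.22-fold difference lost its call in 8 of 17 alternatives. It was lost without any single library of KD_OE or NC_NC (adjusted p from 0.0611 to 0.0998). Correction for GC content and length, with or without the replicate block, also removed it (0.0579 and 0.0546). Its log2 fold change ran from 0.168 to 0.388 over the 17. Over the omissions of single libraries the edgeR adjusted p ran from 0.00101 to 0.0998.

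ERBB2 (ENSG00000141736, chromosome 17, 39687914 to 39730426, plus strand) stood at 107, 113 and 125 CPM in KD_OE, 125, 104 and 108 CPM in KD_NC and 129, 135 and 128 CPM in NC_NC. All 6 libraries labelled knockdown lay below the 3 controls, yet no difference was called. The log2 fold change was -0.23 for KD_NC against NC_NC (95% interval -0.42 to -0.03, edgeR adjusted p = 0.0669), -0.19 for KD_OE against NC_NC (-0.38 to 0.01, adjusted p = 0.0921) and 0.04 for KD_OE against KD_NC (-0.16 to 0.23, adjusted p = 0.766). The first of these was called without KD_NC replicate 1 (log2 -0.31, adjusted p = 0.0102) and was -0.02 after correction for GC content and length (adjusted p = 0.84), ERBB2 having 57.5% GC. The second was called in 3 of 17 alternatives, namely with only those 2 groups fitted (adjusted p = 0.0247), without KD_NC replicate 1 (0.0381) and without KD_OE replicate 3 (0.044). ERBB2 exons share 571 bases with MIEN1 and 194 bases with PGAP3 on the other strand. The strand setting of the counting was not stated, so reads counted there may come from another of these genes.

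ERBB3 (ENSG00000065361, chromosome 12, 56076799 to 56103505, plus strand) stood at 71.5, 69.5 and 76.1 CPM in KD_OE, 70.1, 56.1 and 52.2 CPM in KD_NC and 48.0, 49.4 and 50.8 CPM in NC_NC. KD_OE and KD_NC overlapped at KD_NC replicate 1, and NC_NC lay below both. It rose 1.46-fold in KD_OE against NC_NC (log2 0.55 ± 0.106 SE, edgeR adjusted p = 0.000203). Against KD_NC the rise was 1.22-fold (log2 0.28 ± 0.105, adjusted p = 0.0316), and this call was lost in 9 of 17 alternatives, among them the omission of KD_NC replicate 2 or 3, of any one KD_OE library or of NC_NC replicate 1 or 3 (adjusted p from 0.0516 to 0.14). KD_NC against NC_NC gave a log2 fold change of 0.27 (95% interval 0.05 to 0.49, adjusted p = 0.058), which was called in 8 of 17 alternatives, among them without KD_NC replicate 2 (adjusted p = 0.0282) or 3 (adjusted p = 0.014).

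**Figure D1:**
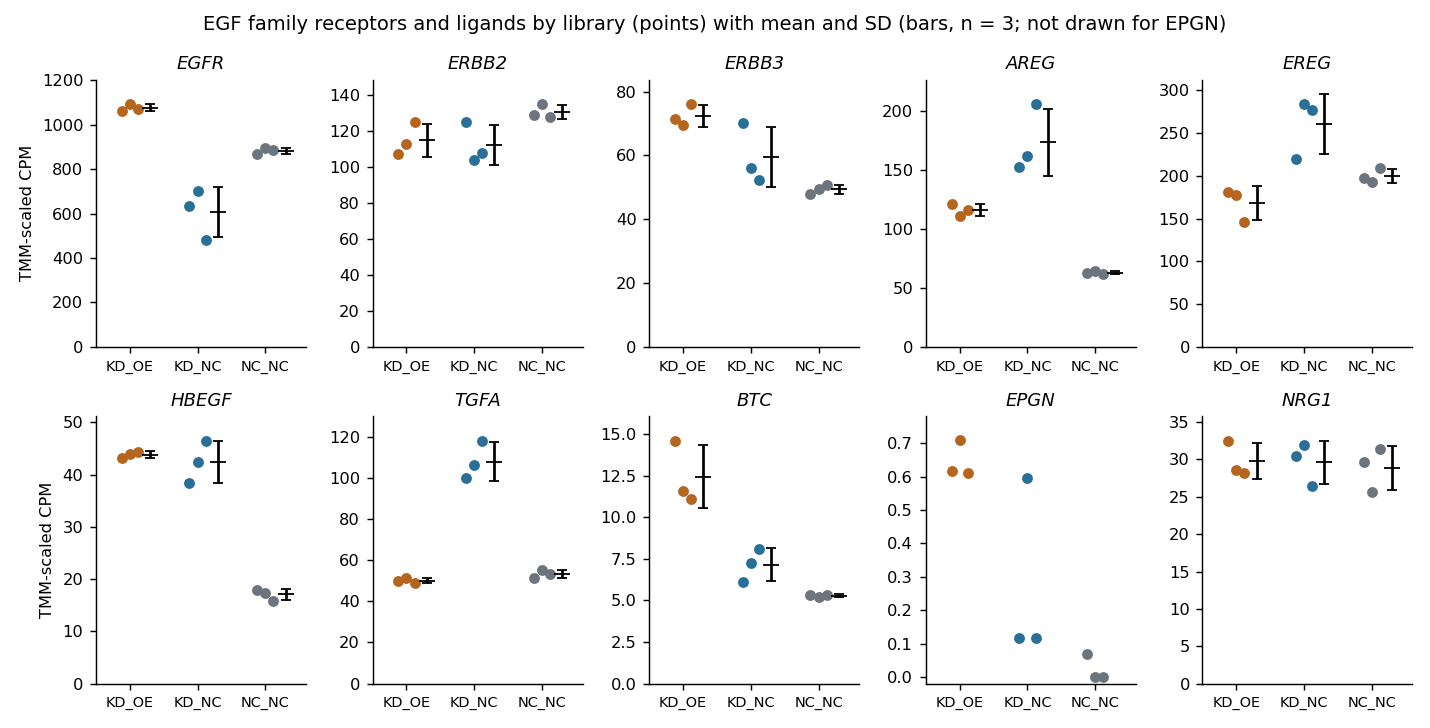
Scaled expression (TMM-scaled CPM, vertical axes from 0 or just below it) of the 10 genes in each of the 9 libraries, with KD_OE, KD_NC and NC_NC from left to right. Points are libraries and black bars the mean and SD of 3, which are not drawn for EPGN. EGFR is lowest in KD_NC, AREG and TGFA are highest there, HBEGF is high in both groups labelled knockdown, and BTC is highest in KD_OE.

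Among the ligands, AREG, HBEGF and TGFA stood 2-fold or more higher in KD_NC than in NC_NC, and each related differently to KD_OE. AREG remained above control in KD_OE at a lower level than in KD_NC, HBEGF stood as high in KD_OE as in KD_NC within the spread of the libraries, and TGFA stood close to control in KD_OE. The promoter sequences of these 3 genes and of EREG are shown because the 4 ligands differ in core promoter letters. Each window runs from 250 bases before to 50 after the RefSeq start on GRCh38.p14. Capitals mark TATAAA, the cyclic AMP response element (CRE) TGACGTCA, the GC box GGGCGG and the AP-1 motif TGANTCA, each searched on both strands.
AREG promoter: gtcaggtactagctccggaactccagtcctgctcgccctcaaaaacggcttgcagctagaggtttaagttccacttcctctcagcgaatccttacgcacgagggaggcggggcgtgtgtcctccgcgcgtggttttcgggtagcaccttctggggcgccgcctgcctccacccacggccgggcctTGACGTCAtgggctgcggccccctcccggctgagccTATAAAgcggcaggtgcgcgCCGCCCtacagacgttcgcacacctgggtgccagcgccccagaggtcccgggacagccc
EREG promoter: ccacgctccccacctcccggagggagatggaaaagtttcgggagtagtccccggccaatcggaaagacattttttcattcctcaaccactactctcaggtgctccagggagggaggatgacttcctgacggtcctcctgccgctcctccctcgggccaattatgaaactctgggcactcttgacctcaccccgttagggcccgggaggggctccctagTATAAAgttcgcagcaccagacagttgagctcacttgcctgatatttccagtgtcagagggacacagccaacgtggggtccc
HBEGF promoter: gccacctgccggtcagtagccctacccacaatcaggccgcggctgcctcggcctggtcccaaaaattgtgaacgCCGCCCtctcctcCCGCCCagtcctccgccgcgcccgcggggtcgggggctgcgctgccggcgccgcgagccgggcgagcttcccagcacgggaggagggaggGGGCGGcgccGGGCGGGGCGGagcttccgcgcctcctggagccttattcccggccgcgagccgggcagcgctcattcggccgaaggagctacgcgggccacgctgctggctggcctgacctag
TGFA promoter: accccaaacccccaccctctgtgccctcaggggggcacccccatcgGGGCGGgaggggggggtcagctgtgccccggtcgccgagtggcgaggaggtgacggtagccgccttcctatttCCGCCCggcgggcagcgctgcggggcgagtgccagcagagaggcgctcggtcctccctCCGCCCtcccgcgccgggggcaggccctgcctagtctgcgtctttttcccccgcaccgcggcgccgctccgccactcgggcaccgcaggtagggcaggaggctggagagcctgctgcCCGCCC
The AREG window (chr4:74444886-74445185, plus strand) held TATAAA 29 bases before the start, a CRE 65 bases before it and 1 GC box on the minus strand. The EREG window (chr4:74364895-74365194, plus strand) held TATAAA 32 bases before the start and none of the other motifs. The HBEGF window (chr5:140346554-140346853, minus strand) held 5 GC boxes, 2 of which overlap each other, and the TGFA window (chr2:70553777-70554076, minus strand) held 4, with no TATAAA in either. The AP-1 motif was in none of these 4 windows. Of 35116 RefSeq promoter windows of this length, 11.5% held TATAAA, 1.85% TGACGTCA, 45.0% GGGCGG and 7.71% TGANTCA. The TGFA start used lies 367 bases from the 5′ end of the gene in the count table, the HBEGF start 28 bases and the other 2 starts 2 bases each. These matches describe letters only, and no binding was measured.

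AREG encodes amphiregulin, a ligand of EGFR alone. AREG (ENSG00000109321, chromosome 4, 74445134 to 74455009, plus strand) stood at 121, 111 and 116 CPM in KD_OE, 153, 162 and 206 CPM in KD_NC and 62.6, 64.4 and 61.8 CPM in NC_NC. The 3 groups did not overlap, and every library labelled knockdown lay above every control. AREG rose 2.76-fold in KD_NC against NC_NC (log2 1.46 ± 0.104 SE, edgeR adjusted p = 5.05e-09) and 1.84-fold in KD_OE against NC_NC (log2 0.88 ± 0.104, adjusted p = 7.05e-07). In KD_OE it was 1.5-fold lower than in KD_NC (log2 -0.58 ± 0.101, adjusted p = 9.83e-05).

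HBEGF encodes heparin-binding EGF-like growth factor, a ligand of EGFR and ERBB4. HBEGF (ENSG00000113070, chromosome 5, 140332843 to 140346631, minus strand) stood at 43.1, 43.9 and 44.4 CPM in KD_OE, 38.4, 42.4 and 46.5 CPM in KD_NC and 18.0, 17.4 and 15.8 CPM in NC_NC. The KD_OE libraries lay within the range of the KD_NC libraries, and all 6 lay above the controls. The rise against NC_NC was 2.56-fold in KD_OE (log2 1.36 ± 0.107 SE, edgeR adjusted p = 3.78e-09) and 2.48-fold in KD_NC (log2 1.31 ± 0.107, adjusted p = 2.88e-08). KD_OE against KD_NC gave a log2 fold change of 0.04 with a 95% interval from -0.17 to 0.26 (adjusted p = 0.74), and 0.21 once GC content and length were corrected for (adjusted p = 0.0363, or 0.0501 with the replicate block added).

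TGFA encodes transforming growth factor alpha, a ligand of EGFR. TGFA (ENSG00000163235, chromosome 2, 70447280 to 70554193, minus strand) stood at 49.8, 51.4 and 48.8 CPM in KD_OE, 99.7, 106 and 118 CPM in KD_NC and 51.5, 55.1 and 53.1 CPM in NC_NC. KD_NC lay apart at about the doubled level, and KD_OE lay just under control with no overlap. TGFA rose 2.02-fold in KD_NC against NC_NC (log2 1.02 ± 0.0914 SE, edgeR adjusted p = 1.16e-07) and was 2.15-fold lower in KD_OE than in KD_NC (log2 -1.11 ± 0.0916, adjusted p = 1.47e-08). The difference between KD_OE and NC_NC was not called (log2 -0.09, 95% interval -0.28 to 0.10, adjusted p = 0.423). The comparisons share the KD_NC libraries, so a high value in KD_NC enters both with opposite sign.

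EREG encodes epiregulin, a ligand of EGFR and ERBB4, and was the ligand with the most reads in every group. EREG (ENSG00000124882, chromosome 4, 74365143 to 74388751, plus strand) stood at 181, 178 and 146 CPM in KD_OE, 220, 284 and 277 CPM in KD_NC and 198, 193 and 209 CPM in NC_NC. KD_NC lay above control and KD_OE below it, without overlap. EREG was 1.55-fold lower in KD_OE than in KD_NC (log2 -0.63 ± 0.105 SE, edgeR adjusted p = 6.58e-05) and rose 1.3-fold in KD_NC against NC_NC (log2 0.38 ± 0.105, adjusted p = 0.00827). KD_OE against NC_NC gave a log2 fold change of -0.25 (95% interval -0.47 to -0.03, adjusted p = 0.0528). It was called in 8 of 17 alternatives, among them without any single KD_NC library or without KD_OE replicate 1 (adjusted p from 0.0147 to 0.0453). In both comparisons with control, genes of lower GC content tended to have higher fold changes (Spearman's rho -0.287 for KD_OE and -0.363 for KD_NC over 16802 genes, which are not independent replicates), and the longest EREG transcript has 36.1% GC against a median of 48.1% among tested genes. After correction for GC content and length the rise in KD_NC was 0.09 on the log2 scale and not called (adjusted p = 0.297), while KD_OE against NC_NC became -0.67 (adjusted p = 1.19e-08).

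BTC encodes betacellulin, a ligand of EGFR and ERBB4. BTC (ENSG00000174808, chromosome 4, 74744759 to 74794686, minus strand) stood at 14.6, 11.6 and 11.1 CPM in KD_OE, 6.12, 7.27 and 8.09 CPM in KD_NC and 5.34, 5.19 and 5.35 CPM in NC_NC. KD_OE was highest, NC_NC lowest, and the groups did not overlap. BTC rose 2.35-fold in KD_OE against NC_NC (log2 1.23 ± 0.161 SE, edgeR adjusted p = 2.69e-06) and 1.73-fold against KD_NC (log2 0.79 ± 0.155, adjusted p = 0.000298). The 1.35-fold rise in KD_NC against NC_NC (log2 0.43 ± 0.166, adjusted p = 0.0488) was lost in 13 of 17 alternatives, among them DESeq2 (adjusted p = 0.0586), omission of any one library of NC_NC or of replicate 2 or 3 of KD_NC or KD_OE (0.0546 to 0.148), and correction for GC content and length (0.273).

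EPGN encodes epigen, a low-affinity ligand of EGFR. EPGN (ENSG00000182585, chromosome 4, 74308473 to 74315307, plus strand) had 10, 12 and 10 counts in KD_OE, 2, 12 and 2 counts in KD_NC and 1, 0 and 0 counts in NC_NC, and it met the count minimum only through the KD_OE libraries, so no test of it is given. The counts summed to 32 in KD_OE, 16 in KD_NC and 1 in NC_NC, and with 1 count in control no ratio is given. Of the 16 counts in KD_NC 12 lie in replicate 2.

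NRG1 encodes neuregulin-1, a ligand of ERBB3 and ERBB4. NRG1 (ENSG00000157168, chromosome 8, 31639386 to 32767959, plus strand) stood at 32.5, 28.6 and 28.2 CPM in KD_OE, 30.5, 31.9 and 26.4 CPM in KD_NC and 29.6, 25.6 and 31.4 CPM in NC_NC. The 3 groups overlapped throughout. No difference was called, with log2 fold changes of 0.04 for KD_NC against NC_NC (95% interval -0.20 to 0.27), 0.04 for KD_OE against NC_NC (-0.19 to 0.28) and 0.01 for KD_OE against KD_NC (-0.23 to 0.25) and edgeR adjusted p from 0.761 to 0.954.

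**Figure D2:**
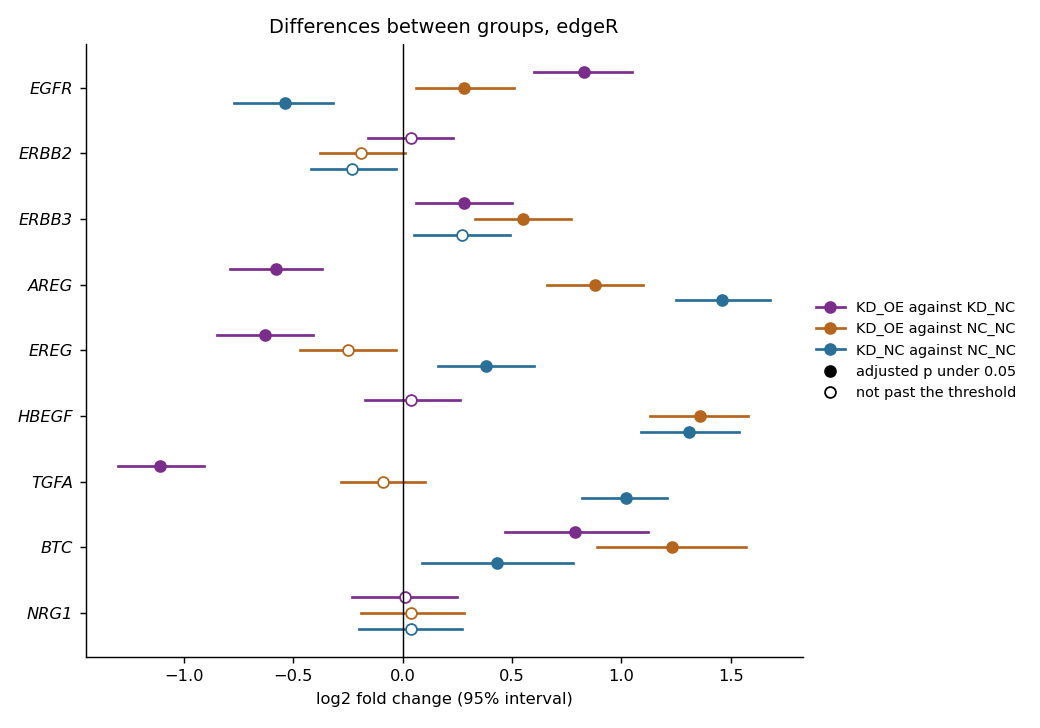
Log2 fold changes (horizontal axis) of 9 of the 10 genes with their 95% intervals in the 3 comparisons, edgeR; filled points passed an adjusted p of 0.05, and EPGN is left out because NC_NC held 1 count. AREG, HBEGF and TGFA lie above 1 in KD_NC against NC_NC, TGFA lies below -1 in KD_OE against KD_NC, and NRG1 lies at 0 in all 3.

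EPGN is left out of the counts that follow, which cover the other 9 genes. In KD_NC against NC_NC 5 of the 9 rose and 1 fell, where edgeR called 34.6% of the 16812 genes tested, 16.0% higher and 18.5% lower. The 5 that rose were the ligands AREG, EREG, HBEGF, TGFA and BTC, and the 1 that fell was EGFR. Every KD_NC library lay on 1 side of every NC_NC library for 8 of the 9, and for 44.7% of all genes. In KD_OE against KD_NC 3 genes rose (EGFR, ERBB3 and BTC), 3 fell (AREG, EREG and TGFA) and 3 were not called, where 49.2% of all genes were called, 23.7% higher and 25.6% lower. There the libraries were separated for 5 of the 9 and for 54.0% of all genes. In KD_OE against NC_NC 5 rose (EGFR, ERBB3, AREG, HBEGF and BTC) and 0 fell, where 56.3% of all genes were called, 27.9% higher and 28.4% lower. Of the 4 genes not called at an adjusted p of 0.05 in that comparison, ERBB2, EREG and TGFA lay lower in every KD_OE library than in every NC_NC library. Separation held there for 8 of the 9 and for 66.9% of all genes.

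Levels were compared between genes per kilobase (kb) of annotated exon. That length is the union of all annotated exons of a gene, not the length of the transcripts present. The order of genes and the sums, shares and ratios below depend on it. In KD_OE the order was EGFR at 85.9 CPM per kb, AREG at 70.4, EREG at 29.5, HBEGF at 14.5, ERBB2 at 11.1, TGFA at 10.1, ERBB3 at 8, BTC at 4.41, NRG1 at 2.63 and EPGN at 0.356. In KD_NC AREG came first at 105 CPM per kb, followed by EGFR at 48.4 and EREG at 45.6, whose libraries overlapped. In NC_NC EGFR came first at 70.5 CPM per kb, followed by AREG at 38.2 and EREG at 35, which did not overlap. HBEGF and ERBB3 overlapped in NC_NC at 5.66 and 5.46 CPM per kb, as did NRG1 and BTC in KD_NC at 2.61 and 2.54.

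The 7 ligands summed to 138, 131 and 127 CPM per kb in the KD_OE libraries, 169, 189 and 218 in the KD_NC libraries and 93.5, 93.8 and 94.7 in the NC_NC libraries. The sum was higher in every library labelled knockdown than in any control, and highest in KD_NC. The 3 receptors summed to 105 ± 1.67 CPM per kb in KD_OE, 65.9 ± 9.70 in KD_NC and 88.6 ± 1.49 in NC_NC (SD, n = 3). Ligand over receptor was thus 1.26 ± 0.0716 in KD_OE, 3.00 ± 0.86 in KD_NC and 1.06 ± 0.0163 in NC_NC, a description of transcripts that says nothing of protein. AREG made up 53.4 ± 1.76% of the ligand sum in KD_OE, 54.8 ± 2.67% in KD_NC and 40.6 ± 1.03% in NC_NC. EREG made up 22.3 ± 1.95% in KD_OE, 23.8 ± 2.19% in KD_NC and 37.2 ± 1.35% in NC_NC. The AREG to EREG ratio per kb was 2.41 ± 0.30 in KD_OE, 2.32 ± 0.309 in KD_NC and 1.09 ± 0.0671 in NC_NC, so it differed little between the groups labelled knockdown although both genes were lower in KD_OE. TGFA took 7.65 ± 0.331% in KD_OE, 11.3 ± 0.511% in KD_NC and 11.4 ± 0.38% in NC_NC, and HBEGF 11 ± 0.609% in KD_OE, 7.34 ± 0.242% in KD_NC and 6.02 ± 0.44% in NC_NC.

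**Figure D3:**
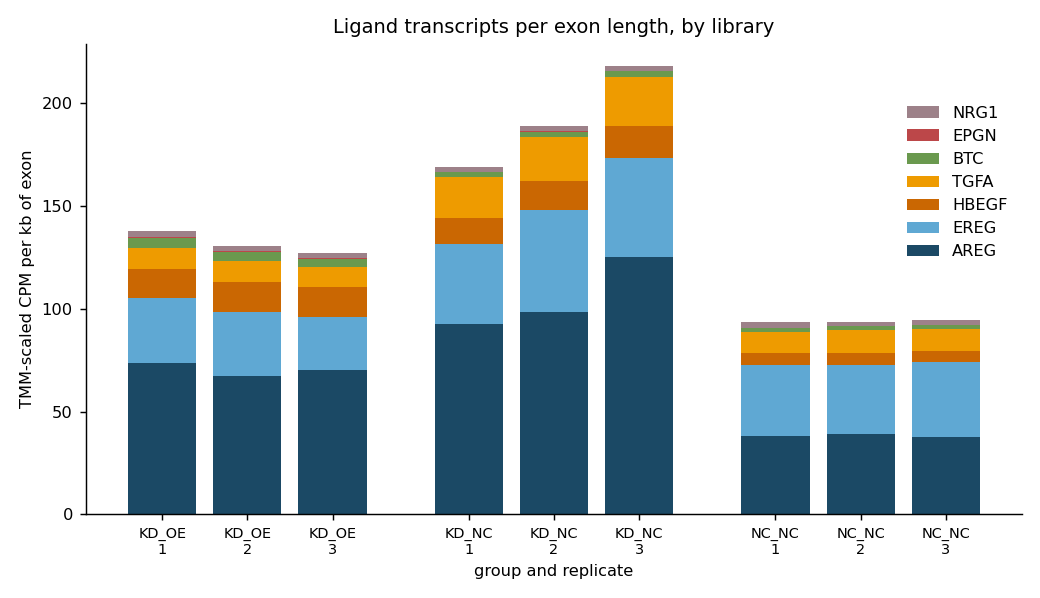
Stacked levels of the 7 ligands per exon length (TMM-scaled CPM per kb, vertical axis) in each library, in the order KD_OE, KD_NC and NC_NC. The bars reach 127 to 138 in KD_OE, 169 to 218 in KD_NC and 93.5 to 94.7 in NC_NC, and AREG and EREG make up most of each.

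For 7 of the 10 genes the spread was largest among the KD_NC libraries, the exceptions being BTC, EPGN and NRG1. The coefficient of variation over 3 libraries was 18.6% for EGFR in KD_NC, against 1.48% in KD_OE and 1.61% in NC_NC, and 16.3% for AREG in KD_NC, against 4.03% in KD_OE and 2.13% in NC_NC. KD_NC replicate 3 held the highest AREG, HBEGF, TGFA and BTC of the 3 and the lowest EGFR, ERBB3 and NRG1. NRG1 varied by 7.87% in KD_OE, 9.65% in KD_NC and 10.2% in NC_NC, and BTC by 15.1% in KD_OE, 13.8% in KD_NC and 1.76% in NC_NC. The fit took 1 spread per gene from all 9 libraries, so the standard errors do not follow these differences.

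Of 5 further genes of the family, ERBB4, a receptor for HBEGF, EREG, BTC and the neuregulins, had 10 counts in all of KD_OE, 6 in KD_NC and 10 in NC_NC, and NRG3 had 3 in KD_OE, 0 in KD_NC and 0 in NC_NC, too few to be tested. EGF, which names the family, stood at 0.365 ± 0.225 CPM in KD_OE, 0.497 ± 0.0278 CPM in KD_NC and 0.595 ± 0.223 CPM in NC_NC (SD, n = 3). NRG4, a ligand of ERBB4, was 1.45-fold higher in KD_OE than in KD_NC (edgeR adjusted p = 0.00363) and 1.38-fold lower in KD_NC than in NC_NC (adjusted p = 0.0142), but 1917 of its 5031 exon bases are shared with FBXO22 on the other strand, which had 573.7% of its counts.

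Genes that release the ligands from the membrane or control that step moved in both directions. Of 11 tested, 6 rose and 3 fell in KD_OE against NC_NC (median log2 0.61, against 0.02 for all genes), 5 rose and 2 fell in KD_OE against KD_NC (0.28, against 0.01), and 4 rose and 4 fell in KD_NC against NC_NC (-0.01, against -0.01). Of all genes 27.9% rose and 28.4% fell in KD_OE against NC_NC, 23.7% and 25.6% in KD_OE against KD_NC, and 16.0% and 18.5% in KD_NC against NC_NC. ADAM17, the main sheddase of AREG, EREG, HBEGF and TGFA, averaged 117 ± 2.31 CPM in KD_OE, 61.1 ± 2.33 CPM in KD_NC and 61.6 ± 0.773 CPM in NC_NC (SD, n = 3). It rose in KD_OE against KD_NC (log2 0.94 ± 0.0839 SE, edgeR adjusted p = 3.96e-08) and against NC_NC (log2 0.93 ± 0.0841, adjusted p = 2.57e-08). Exons of ADAM17 share 1323 bases with IAH1 on the other strand. TIMP3, an inhibitor of ADAM17, rose 1.75-fold in KD_OE against KD_NC (adjusted p = 0.000549) and 2.75-fold against NC_NC (adjusted p = 1.12e-06). ADAM12, a metalloprotease able to cut HBEGF, averaged 16.0 ± 2.12 CPM in KD_NC against 1.61 ± 0.488 CPM in NC_NC (9.97-fold, adjusted p = 3.79e-09) and was 4.42-fold lower in KD_OE than in KD_NC (adjusted p = 8.66e-08). FRMD8, which stabilises the complex of ADAM17 with its iRhom partners, was 1.58-fold lower in KD_OE and 1.49-fold lower in KD_NC than in NC_NC (adjusted p = 1.16e-06 and 2.04e-05). ADAM9 rose 1.41-fold in KD_NC against NC_NC (adjusted p = 0.000866), and ADAM15 was 1.69-fold lower in KD_OE and 1.25-fold lower in KD_NC than in NC_NC (adjusted p = 1.66e-06 and 0.0119). ADAM10, the sheddase of BTC and named here after its values were seen, rose in KD_OE against NC_NC (log2 0.79 ± 0.0973, adjusted p = 1.32e-06), in KD_OE against KD_NC (0.39 ± 0.0964, adjusted p = 0.00253) and in KD_NC against NC_NC (0.40 ± 0.0971, adjusted p = 0.00358).

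Among 16 genes that attenuate the receptors or carry them to degradation, 7 rose and 2 fell in KD_OE against NC_NC (median log2 0.13), 6 rose and 3 fell in KD_OE against KD_NC (0.05), and 4 rose and 3 fell in KD_NC against NC_NC (0.14), beside 56.3%, 49.2% and 34.6% of all genes called in these 3 comparisons. ERRFI1, an inhibitor that binds the EGFR kinase domain, averaged 136 ± 4.98 CPM in KD_OE and 134 ± 4.63 CPM in KD_NC against 56.8 ± 1.12 CPM in NC_NC (SD, n = 3), 2.40-fold and 2.36-fold higher (edgeR adjusted p = 4.42e-10 and 2.86e-09). CBLB, a ubiquitin ligase that acts on activated receptors, averaged 38.3 ± 4.6 CPM in KD_OE, 19.0 ± 4.39 CPM in KD_NC and 8.33 ± 1.25 CPM in NC_NC, and rose 2.01-fold in KD_OE against KD_NC (adjusted p = 1.60e-05) and 4.59-fold against NC_NC (adjusted p = 1.56e-09). SH3KBP1, an adaptor of receptor endocytosis, rose 1.86-fold in KD_NC against NC_NC (adjusted p = 2.23e-06). PTPN1, a tyrosine phosphatase that acts on EGFR, was 2.41-fold lower in KD_OE and 2.17-fold lower in KD_NC than in NC_NC (adjusted p = 6.64e-10 and 1.62e-08). USP8, a deubiquitinase of receptors on endosomes, rose 1.51-fold in KD_OE against KD_NC (adjusted p = 0.000227), where STAM and EPN1 fell 1.41-fold and 1.33-fold (adjusted p = 0.00139 and 0.00331).

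Of 28 tested genes that relay the signal, 8 rose and 11 fell in KD_OE against NC_NC (median log2 -0.10), where 27.9% of all genes rose and 28.4% fell. In KD_OE against KD_NC 5 rose and 9 fell (-0.06), beside 23.7% and 25.6% of all genes, and in KD_NC against NC_NC 7 rose and 5 fell (0.03), beside 16.0% and 18.5%. SOS2, a nucleotide exchange factor for RAS, averaged 87.5 ± 10.9 CPM in KD_OE, 50.5 ± 6.77 CPM in KD_NC and 27.3 ± 1.27 CPM in NC_NC, and its rise of 3.21-fold in KD_OE against NC_NC had an edgeR adjusted p of 7.52e-10. GRB2, the adaptor between receptor and SOS proteins, averaged 127 ± 5.89 CPM in KD_OE, 199 ± 5.82 CPM in KD_NC and 226 ± 10.3 CPM in NC_NC, and was 1.57-fold lower in KD_OE than in KD_NC (adjusted p = 2.83e-06). PIK3CA, a catalytic subunit of PI3-kinase whose exons share 3403 bases with KCNMB3 on the other strand, rose 1.80-fold in KD_OE against KD_NC (adjusted p = 1.04e-05). STAT3 and the kinase gene MAP2K2 were 1.54-fold and 1.61-fold lower in KD_NC than in NC_NC (adjusted p = 1.29e-05 and 0.000107).

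Genes that ERK, the kinase at the end of this cascade, is known to induce moved in both directions. Of 19 tested, 6 rose and 8 fell in KD_OE against NC_NC (median log2 -0.12), 2 rose and 8 fell in KD_OE against KD_NC (-0.28), and 8 rose and 3 fell in KD_NC against NC_NC (-0.03). The shares of all genes that rose and fell were 27.9% and 28.4%, 23.7% and 25.6%, and 16.0% and 18.5% in those comparisons. DUSP4, a phosphatase of MAP kinases, averaged 6 ± 1.34 CPM in KD_OE, 23.7 ± 0.312 CPM in KD_NC and 4.66 ± 0.30 CPM in NC_NC, and was 3.95-fold lower in KD_OE than in KD_NC (edgeR adjusted p = 3.76e-09). IER3, an immediate early gene, rose 2.19-fold in KD_OE and 2.44-fold in KD_NC against NC_NC (adjusted p = 2.08e-08 and 2.01e-08). EGR1, an immediate early transcription factor, rose 2.44-fold in KD_OE against KD_NC (adjusted p = 1.43e-08), and PHLDA1 rose 2.20-fold in KD_OE against NC_NC (adjusted p = 3.78e-09). The transcription factor gene ETV5 was 2.06-fold lower in KD_NC than in NC_NC (adjusted p = 1.70e-05) and 1.60-fold higher in KD_OE than in KD_NC (adjusted p = 0.000613). CCND1, which encodes cyclin D1 and shares exon bases with LTO1 on the other strand, averaged 620 ± 21.3 CPM in KD_OE, 1028 ± 40.3 CPM in KD_NC and 1527 ± 30.1 CPM in NC_NC, with all 3 differences called (adjusted p = 5.50e-07 for KD_OE against KD_NC).

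**Figure D4:**
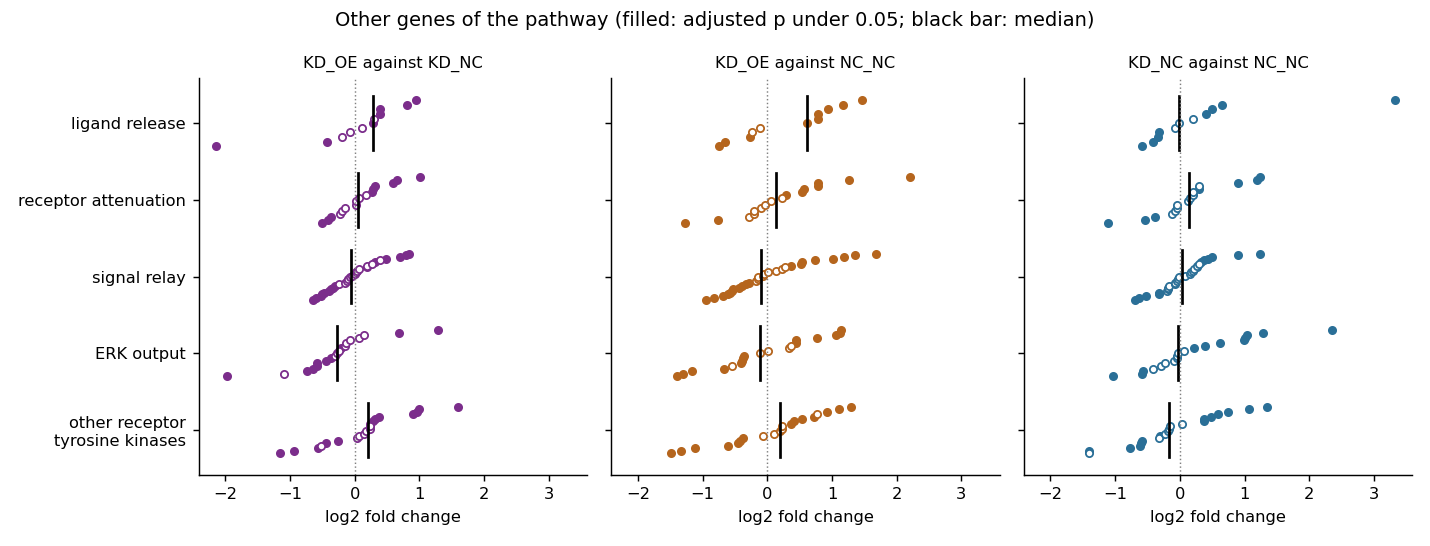
Log2 fold changes (horizontal axis) of single genes (points, filled where the adjusted p was under 0.05) of 5 lists in the 3 comparisons, with the median of each list as a black bar. Each list holds genes that rose and genes that fell in all 3 comparisons, and the medians lie between -0.28 and 0.61.

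Among 20 other receptor tyrosine kinases of epithelial and mesenchymal cells, 7 rose and 7 fell in KD_OE against NC_NC (median log2 0.20), 8 rose and 5 fell in KD_OE against KD_NC (0.21) and 7 rose and 6 fell in KD_NC against NC_NC (-0.17), where 56.3%, 49.2% and 34.6% of all genes were called. The 3 EGF family receptors had medians of 0.28 in KD_OE against NC_NC, 0.28 in KD_OE against KD_NC and -0.23 in KD_NC against NC_NC. MET, the receptor of hepatocyte growth factor, averaged 478 ± 24.5 CPM in KD_OE, 382 ± 51.5 CPM in KD_NC and 254 ± 19.9 CPM in NC_NC (SD, n = 3), and rose 1.51-fold in KD_NC against NC_NC (edgeR adjusted p = 0.00014), where EGFR fell. AXL, the receptor of GAS6, averaged 47.9 ± 4.22 CPM in KD_OE, 57.3 ± 3.67 CPM in KD_NC and 22.4 ± 0.693 CPM in NC_NC. FGFR3, a fibroblast growth factor receptor, was 2.15-fold lower in KD_OE and 2.64-fold lower in KD_NC than in NC_NC (adjusted p = 5.33e-08 and 1.40e-08). Like EGFR, FGFR2 was lower in KD_NC than in NC_NC (1.51-fold, adjusted p = 0.000218). In KD_OE FGFR2 was 1.95-fold higher than in KD_NC (adjusted p = 3.52e-07) and 1.29-fold higher than in NC_NC (adjusted p = 0.0041). DDR1 also fell in KD_NC against NC_NC (1.52-fold, adjusted p = 0.000122).

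EPGN, EREG, AREG and BTC lie within 486 kb on chromosome 4 (GRCh38 74308473 to 74794686), with gaps of 49.8, 56.4 and 290 kb between them. Of 13 other tested genes within 1 Mb of that span, 9 rose and 1 fell in KD_OE against NC_NC, 5 rose and 3 fell in KD_OE against KD_NC, and 10 rose and 1 fell in KD_NC against NC_NC. Beside these counts, 27.9% of all genes rose and 28.4% fell in KD_OE against NC_NC, 23.7% and 25.6% in KD_OE against KD_NC, and 16.0% and 18.5% in KD_NC against NC_NC. On the low-coordinate side, beyond MTHFD2L, lie 4 tested chemokine genes, CXCL8, CXCL1, CXCL3 and CXCL2, of which the last 3 are close copies whose reads the counting could split. CXCL1 and CXCL8, both attractants of neutrophils, had log2 fold changes of 1.65 and 1.71 in KD_NC against NC_NC (edgeR adjusted p = 2.86e-09 and 3.39e-09). In KD_OE against KD_NC, CXCL1 fell by 0.66 on the log2 scale (adjusted p = 4.78e-05) while CXCL2 rose by 1.35 (adjusted p = 1.62e-08). USO1, a vesicle tethering factor at the far end of the window, rose by 1.25 (adjusted p = 7.92e-09), and PARM1 fell by 1.18 (adjusted p = 0.000236). G3BP2 was lower in all 3 comparisons, by 0.34 in KD_NC against NC_NC on the log2 scale (adjusted p = 0.00763).

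**Figure D5:**
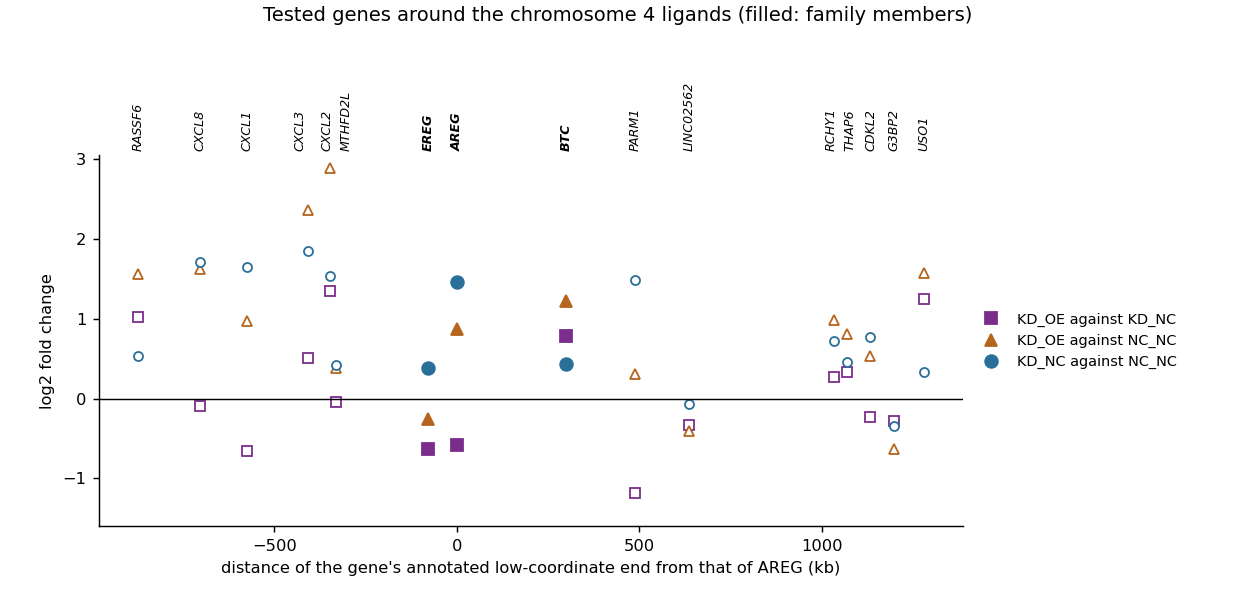
Log2 fold changes (vertical axis) of tested genes around the ligands of chromosome 4, placed by distance in kb from AREG; filled symbols are EREG, AREG and BTC, open symbols other genes, with a shape for each comparison. In KD_OE against KD_NC neighbouring genes lie on both sides of 0, with EREG and AREG near -0.6, CXCL2 at 1.35 and BTC at 0.79.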

How the data were processed

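The authors deposited 1 table of raw read counts per gene, as whole numbers and without normalisation, for 9 libraries. The tools named are featureCounts 1.5.0-p3, HISAT2 2.0.5 and StringTie 1.3.3b, without their roles, with hg19 as the build, per the submitters' processing notes. The coordinates in the deposited table equal those of GENCODE v29 on GRCh38 for all 58735 genes, so positions are on GRCh38. Strand setting and treatment of reads matching several places were not stated in the sources used here.

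The deposited counts were tested with edgeR 4.0.16 under R 4.3.3. Its filterByExpr (at least 10 counts, by group) left 16812 genes, TMM factors scaled the libraries, and a robust quasi-likelihood fit with 1 term per group over all 9 libraries (6 residual degrees of freedom) was tested for 3 contrasts. Genes were called at a Benjamini-Hochberg adjusted p under 0.05 over all genes tested. Fold changes are first-named over second-named group. Standard errors (SE) were derived from the log2 fold change and its F statistic, as the size of the change over the root of F. The steps were also run on simulated counts, whose outcome is not given here. That simulation gave each gene 1 spread for all groups, so it does not cover the larger spread among the KD_NC libraries. GC content came from each gene's longest GENCODE transcript, and promoters from RefSeq. Of the 9 genes other than NRG1, 8 had a window of the length used and ERBB3 had none. The window of NRG1 was left out.

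The genes and lists were chosen with earlier results of these data known. Named are all 10 members and, per list and comparison, up to 2 risen and 2 fallen genes with the lowest adjusted p and a mean of at least 5 CPM, of which some are left out here. For neighbours on chromosome 4 the same numbers applied without the minimum, and USO1, PARM1 and G3BP2 came from that rule. Alternatives were upper-quartile and RLE factors, DESeq2 1.42.0, no filter, a fit to the 2 groups compared, a replicate block, a GC and length correction with and without the block, and omission of each library. Deviations of same-numbered libraries from their group means correlated between -0.0922 and 0.0594 over 9 pairs, so no shared deviation was seen. The labels do not say whether the numbers pair the cultures. A pairing that left no shared deviation would not show in this check.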

Additional observations from a re-analysis of the deposited data

How the results depend on the processing

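Without EPGN, 6 members were called in KD_NC against NC_NC (5 to 7 over 17 alternatives), 6 in KD_OE against KD_NC (5 to 7) and 5 in KD_OE against NC_NC (4 to 7). With the replicate block 5, 6 and 5 of these were called. BTC in KD_NC against NC_NC was the call that the block removed (edgeR adjusted p = 0.0722). EGFR, AREG, HBEGF and TGFA in KD_NC against NC_NC, EGFR, AREG, EREG, TGFA and BTC in KD_OE against KD_NC, and ERBB3, AREG, HBEGF and BTC in KD_OE against NC_NC kept direction and call in every alternative. Only differences not called changed sign. For NRG1 the log2 value was -0.05548 after the GC and length correction, and -0.05352 with the replicate block added, in KD_NC against NC_NC. It was -0.1683 and -0.1684 in KD_OE against NC_NC, and -0.1129 and -0.1149 in KD_OE against KD_NC, where it was -0.02853 without the filter. ERBB2 in KD_OE against KD_NC turned to -0.09958 and -0.09972 in the same fits. TGFA in KD_OE against NC_NC turned to 0.01302 with upper-quartile factors, which moved the median of all genes there to 0.126, against 0.0227 with TMM. With single libraries left out NRG1 ran from -0.0458 to 0.112 in KD_NC against NC_NC, -0.0843 to 0.0424 in KD_OE against KD_NC and -0.046 to 0.0994 in KD_OE against NC_NC. In KD_OE against KD_NC, ERBB2 ran from -0.0524 to 0.111 and HBEGF from -0.0316 to 0.106. The cause of these changes was not tested. At this depth, changes in EPGN, EGF, ERBB4 and NRG3 rest on few counts.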

Other observations

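For each member except EPGN, whose level lies below the amount added before the log, the 3 protein-coding genes with the most similar pattern were sought among 10358 genes with at least 5 CPM, as the root mean square difference of log2(CPM + 0.5), centred on each gene's mean, over 9 libraries. Nearest to EGFR, low in KD_NC and high in KD_OE, were SRRM2 (0.071), SLC7A1 (0.072) and TMEM131 (0.074), where the median gene stood 0.477 away. Nearest to ERBB3 were PIK3CD (0.064), GPRC5B (0.072) and DCAF5 (0.073), and nearest to ERBB2 were LDB1 (0.037), GIT1 (0.045) and SLC4A2 (0.046). For AREG they were MRPL33 (0.097), the chromosome 4 neighbour CXCL1 (0.098) and UGCG (0.113). For HBEGF the nearest was ERRFI1 (0.085), which encodes the EGFR inhibitor described above, before FAM107B (0.101) and KCTD20 (0.105). EREG was nearest to RAB14 (0.040), FAM98B (0.054) and DIMT1 (0.063). For TGFA they were CNN3 (0.067), TUBA1A (0.088, a gene with near-identical copies) and IFI27 (0.112), and for BTC ZNF280D (0.068), DERL2 (0.081) and SGTB (0.095). NRG1, which varied little (root mean square 0.11 about its own mean), was nearest to HELB (0.056), CENPJ (0.059) and VCPIP1 (0.064).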
